A study of Mus musculus with 25 samples.

Results

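DNA methylation of the mammary fat pad was compared between previously obese mice on a Mediterranean-style diet and previously obese mice on a low-fat diet, both at 30% calorie restriction, so that the groups differ in diet composition. The Mediterranean group, labelled MCR, held mice 85, 95 and 96, and the low-fat group, labelled LFCR, held mice 63, 67, 69 and 72, which makes 7 of the 25 libraries of the series. CpG sites were taken where they lay on chromosomes 1 to 19, had an average coverage of at least 10 reads and had a value in at least 3 mice of each group. This left 131042 of the 283974 CpGs listed.

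Per the labels, all 7 were wild-type C57BL/6N mice that became obese on a 60% high-fat diet before the diet change, so both groups share that earlier obesity. In every mouse, E0771 cells, a mouse mammary cancer line, were injected into the 4th mammary fat pad 25 weeks after the first randomisation. DNA came from the contralateral 9th pad, which received no cells, although "tumor" stands in each title and a label gives mammary cancer as the cell type. The 5 Control mice, on a control diet and never obese, carried the same injection and are shown for orientation. The labels do not say whether the mice of a group shared a cage or litter. The tests treat the mice as independent, which could not be checked.

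Cytosine methylation at CpG sites is laid down by DNA methyltransferases and is lost through TET enzymes or through dilution at cell division. CpG islands at active promoters are usually unmethylated, whereas CpGs far from islands are mostly methylated, and the pattern of intermediate sites is known to differ between cell types. A mammary fat pad holds adipocytes, ductal epithelium, fibroblasts, vessels and immune cells, so a different mix of cells and a different level within cells cannot be told apart in this tissue. Reduced representation bisulfite sequencing (RRBS) reads short MspI fragments, here of 40 to 170 bp, and gives for each CpG the share of reads that were methylated, printed here in percent. Differences are MCR minus LFCR in percentage points.

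The sequences of 4 promoters show where the measured sites lie. The promoter of Gm45979, a gene model with no role given here, had the smallest p among the 300-base RefSeq promoter windows, and those of Dok3, A030001D20Rik and Mxra8 were among the promoters of widest spread between LFCR mice. These windows were chosen after their values were seen. Each sequence runs 5′ to 3′ along the strand of the gene, and capitals mark the CG of the CpGs that were measured. Sequences are from RefSeq (GRCm38.p6, mm10).
Gm45979, chr7:30450196-30450495, plus strand: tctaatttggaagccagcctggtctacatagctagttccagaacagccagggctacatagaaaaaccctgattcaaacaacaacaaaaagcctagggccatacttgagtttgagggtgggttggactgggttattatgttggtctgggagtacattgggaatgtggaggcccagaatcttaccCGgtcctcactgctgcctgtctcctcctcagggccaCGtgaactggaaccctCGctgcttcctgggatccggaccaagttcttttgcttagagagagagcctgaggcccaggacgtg
Dok3, chr13:55528489-55528788, minus strand: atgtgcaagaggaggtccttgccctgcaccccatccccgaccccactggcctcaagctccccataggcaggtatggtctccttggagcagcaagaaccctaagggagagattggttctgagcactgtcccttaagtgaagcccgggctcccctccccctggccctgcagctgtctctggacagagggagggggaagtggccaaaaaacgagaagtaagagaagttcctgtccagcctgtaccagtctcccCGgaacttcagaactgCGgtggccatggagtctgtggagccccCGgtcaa
A030001D20Rik, chr7:45638709-45639008, minus strand: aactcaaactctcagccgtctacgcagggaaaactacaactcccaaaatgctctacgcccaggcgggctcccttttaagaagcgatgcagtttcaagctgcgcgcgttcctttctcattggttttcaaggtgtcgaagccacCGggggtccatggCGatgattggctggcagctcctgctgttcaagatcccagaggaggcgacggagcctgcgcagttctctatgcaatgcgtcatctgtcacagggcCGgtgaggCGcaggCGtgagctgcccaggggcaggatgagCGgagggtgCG
Mxra8, chr4:155839430-155839729, plus strand: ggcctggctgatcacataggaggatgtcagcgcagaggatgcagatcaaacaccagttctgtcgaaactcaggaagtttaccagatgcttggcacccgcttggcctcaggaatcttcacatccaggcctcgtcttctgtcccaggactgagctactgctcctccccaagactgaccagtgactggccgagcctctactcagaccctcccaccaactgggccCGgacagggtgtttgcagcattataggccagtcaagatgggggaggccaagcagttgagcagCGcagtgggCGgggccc

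In the Gm45979 window 3 CpGs were measured, at positions 184, 220 and 236 counted from its 5′ end. At position 184 the level was 50% in each of the 3 MCR mice, against 64.2%, 60.4%, 61.7% and 64.1% in LFCR mice 63, 67, 69 and 72. The groups did not overlap at this CpG. At position 220 they did, with 45.8%, 48.1% and 51.1% in MCR mice and 48.9%, 47.3%, 55.1% and 66.8% in LFCR mice. In the Dok3 window, the CpG at position 267 had 88.2%, 79.7% and 73.3% in MCR mice, against 68.3%, 68.5%, 39.1% and 36.8% in LFCR mice. Dok3 encodes an adaptor protein that restrains signalling in B cells and myeloid cells. In the A030001D20Rik window 7 of 20 CpGs were measured, and the one at position 299 had 27.8%, 22.2% and 23.8% in MCR mice, against 17.5%, 14.7%, 50% and 84.6% in LFCR mice. At both of these last sites, mice 69 and 72 stood far from the MCR mice and mice 63 and 67 stood near them.

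Mean methylation was 47.1%, 46.7% and 47.5% in MCR mice 85, 95 and 96, against 46.8%, 47.4%, 52.3% and 54.6% in LFCR mice 63, 67, 69 and 72, over the 127532 CpGs with a value in all 7 libraries. LFCR mice 63 and 67 lay inside the MCR range, and mice 69 and 72 lay above it. The group means were 47.1% ± 0.369 in MCR (SD, n = 3) and 50.3% ± 3.77 in LFCR (SD, n = 4), a difference of -3.15 points. That difference was within the spread between mice (p = 0.314 in a two-sided exact permutation test, and 0.429 adjusted over 12 classes of CpG), where 3 mice against 4 allow no p below 0.0286. The difference was -1.71 points without LFCR mouse 72, and -5.74 points when the median over CpGs replaced the mean. By distance from CpG islands, the difference was -1.70 points for islands and -2.83 for shores, against -3.81 for shelves and -3.73 for the open sea far from islands. None of the 12 classes had a lower adjusted p than 0.429 in the exact permutation test. On single chromosomes the difference lay between -3.68 points on chromosome 4 and -1.74 points on chromosome 13.

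**Figure D1:**
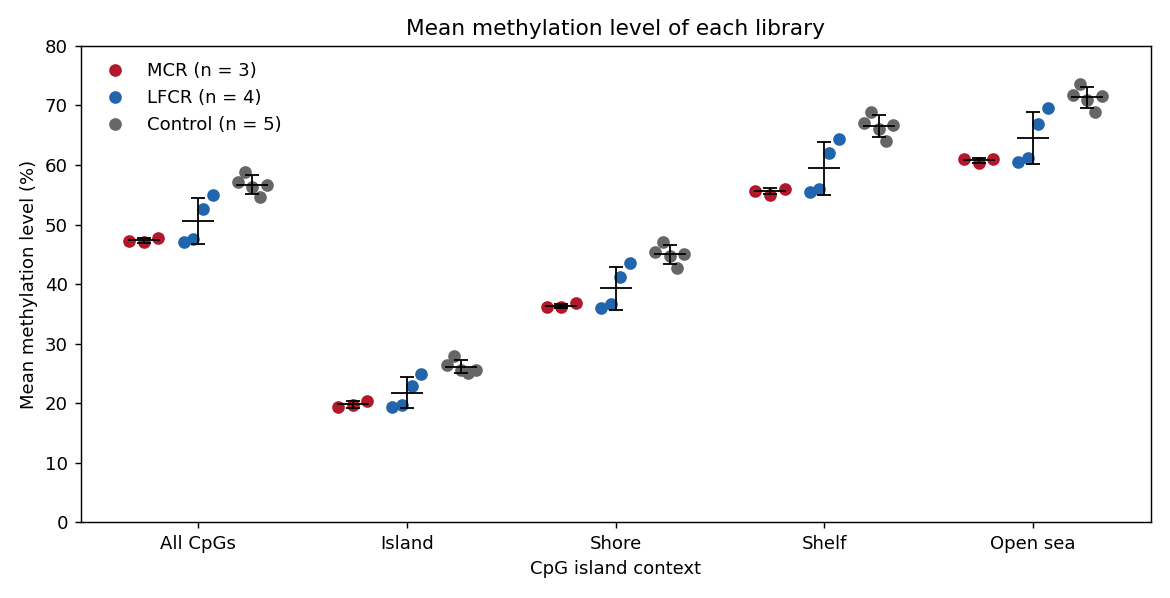
Mean methylation level (%) of each library, by CpG island context, for MCR, LFCR and Control mice, over the 97611 CpGs measured in all 12 libraries. Points are mice, and black bars show the group mean ± SD. Over all these CpGs, the MCR mice sit between 47.0% and 47.7%, the LFCR mice between 47.0% and 55.0%, and the Control mice between 54.6% and 58.9%.

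Distances among the LFCR mice covered nearly the same range as their distances from the MCR mice. The mean absolute difference in level between 2 mice was 7.18 to 8.06 points within MCR, 6.52 to 12.7 points between MCR and LFCR, and 6.14 to 11.9 points within LFCR. LFCR mice 63 and 67 were 6.14 points apart, and mice 69 and 72 were 6.49 points apart. Mouse 72 was 11.9 to 12.7 points from the MCR mice and 5.61 to 7.76 points from the Control mice. Mouse 69 was 9.42 to 10.4 points from the MCR mice and 7.06 to 10.1 points from the Control mice. Mouse 63 was 6.54 to 7.29 points from the MCR mice and 12 to 16.7 points from the Control mice. MCR mice were 11.9 to 17.3 points from Control mice.

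**Figure D2:**
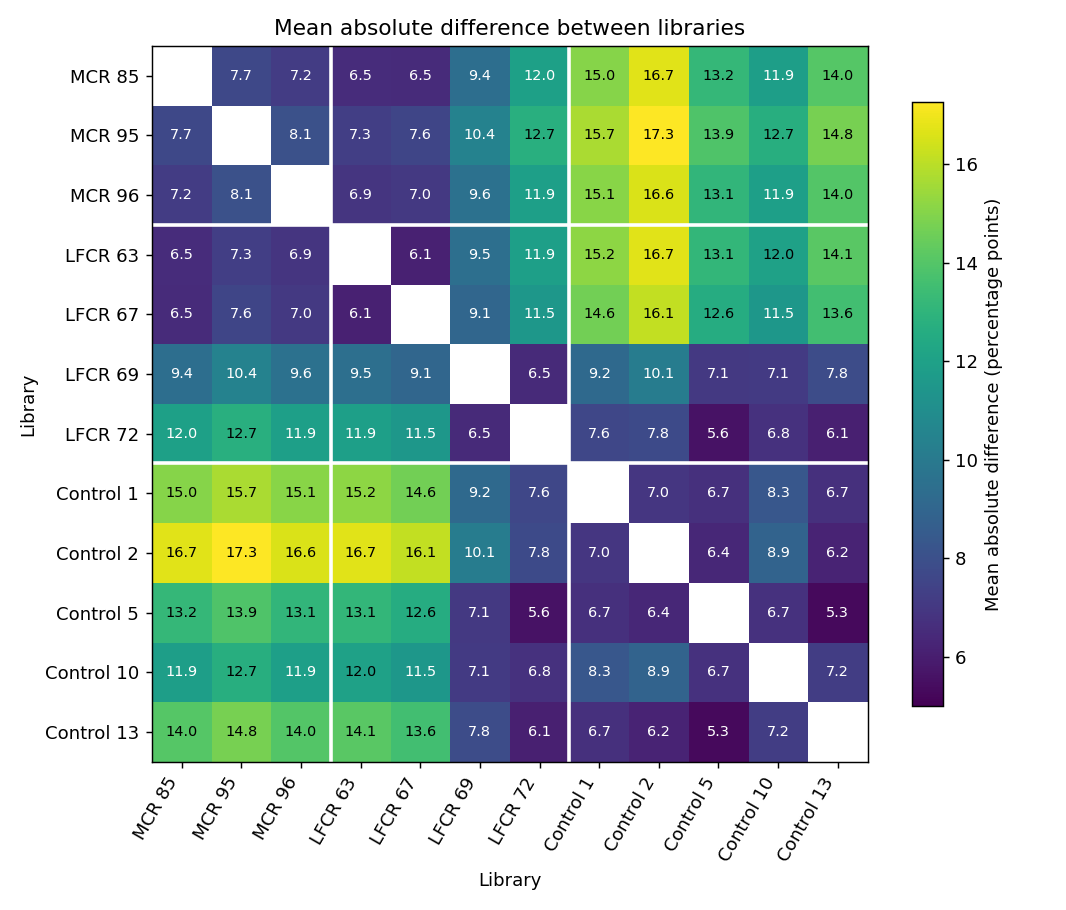
Mean absolute difference in methylation level (percentage points) for each pair of libraries among MCR, LFCR and Control mice, over the CpGs measured in all of them. White lines part the groups. LFCR mice 63 and 67 have low values with the MCR mice, LFCR mice 69 and 72 have low values with each other, and mouse 72 has low values with the Control mice.

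Of 94419 CpGs with a mean level of 10% to 90%, LFCR mouse 72 lay above all 3 MCR mice at 58.1% and below all 3 at 11.8%. For LFCR mouse 69 these shares were 49.3% and 12.3%. For mouse 63 they were 20.8% and 23.0%, and for mouse 67 they were 24.2% and 21.5%. The share of CpGs above a level of 90% was 7.94%, 8.59% and 7.98% in MCR mice, against 7.56%, 8.06%, 11.4% and 14.5% in LFCR mice. LFCR mice 69 and 72 thus held more fully methylated CpGs than any MCR mouse.

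The difference was not even across the range of methylation. At CpGs with a mean under 10% in Control, the MCR mice averaged 2.78% and the LFCR mice 2.59%, a difference of 0.191 points. At CpGs of 50% to 70% in Control the MCR mice had 42.1%, 41.6% and 42.6%, the LFCR mice had 41.7%, 42.6%, 52.5% and 57.7%, and the Control mean was 61.0%. There the difference was -6.55 points. It was -5.05 points in the bin of 70% to 90% and -2.79 points in the bin of 90% and over. At the CpGs of intermediate level, LFCR mice 63 and 67 were thus as far below Control as the MCR mice, and mice 69 and 72 lay between them and Control. The Control libraries set these bins and did not enter the differences between MCR and LFCR. They do enter the distances from Control, which the choice of bins can shift.

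**Figure D3:**
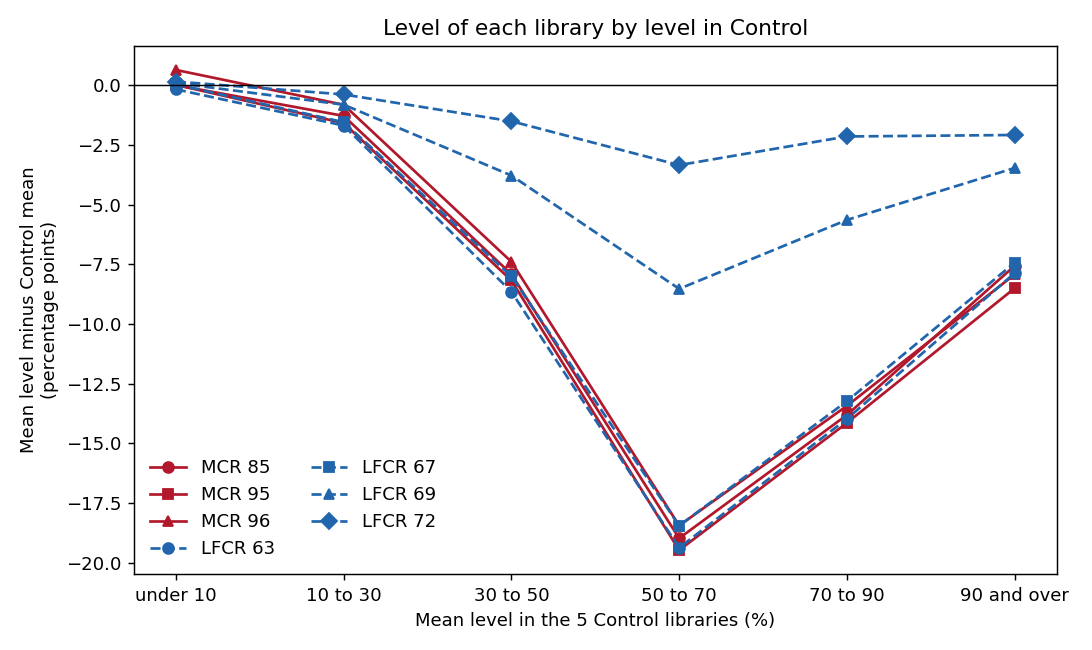
Mean level of each MCR and LFCR library minus the mean of the 5 Control libraries (percentage points), for CpGs grouped by their mean level in Control (%). Solid lines are MCR mice and dashed lines LFCR mice. At CpGs of 50% to 70% in Control, the levels are 41.6% to 42.6% in MCR mice and 41.7%, 42.6%, 52.5% and 57.7% in LFCR mice 63, 67, 69 and 72.

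In the comparison of the 7 libraries, no single CpG, promoter, gene or region passed the test. In limma with Benjamini-Hochberg adjustment, 0 of 131042 CpGs were called at an adjusted p under 0.05 (percent called 0), and the smallest adjusted p was 0.577. The counts called were also 0 of 2791 promoters (smallest adjusted p 0.654 in limma), 0 of 5732 genes (0.523) and 0 of 5819 regions (0.527), where a region is a run of at least 5 CpGs with neighbours at most 100 bp apart. When the spread was shared with 14 other libraries, limma called 15 CpGs (smallest adjusted p 0.00437) and 1 gene (0.00294), with 0 promoters and 0 regions. Obese mice 27, 28 and 40 and mouse 46 of the group labelled LFD were left out there as standing apart. The main comparison kept to MCR and LFCR because earlier results showed LFCR mice to spread more than others. A shared spread need not describe them. At an unadjusted p under 0.05, limma had 7938 CpGs (6.06%) lower and 2094 (1.6%) higher in MCR. For promoters these counts were 159 (5.7%) lower and 33 (1.18%) higher, for genes 361 (6.3%) lower and 38 (0.663%) higher, and for regions 345 (5.93%) lower and 41 (0.705%) higher. These counts moved when single mice were left out, which also makes a group smaller. Without LFCR mouse 63 the count of genes lower in MCR was 982 and without mouse 67 it was 709. Without LFCR mouse 69 it was 132, without mouse 72 it was 188, and without MCR mouse 85, 95 or 96 it was 197, 160 or 235. With the mean level of each library as a covariate, 3980 CpGs were lower and 4192 higher in MCR at an unadjusted p under 0.05, with 0 called.

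A miss of the threshold does not show that the diets gave the same methylation, and the intervals tell how wide the uncertainty was. The median half-width of the 95% interval of a difference was 12.2 points for a CpG, 5.04 points for a promoter, 5.88 points for a gene and 9.49 points for a region. The whole interval lay within 10 points of 0 for 19.9% of CpGs, 62.6% of promoters, 58.2% of genes and 17.1% of regions. The median difference was -2.38 points over CpGs, -1.17 over promoters, -2.65 over genes and -4.02 over regions. At 75.3% of genes the SD among LFCR mice was larger than that among MCR mice, with medians of 3.83 and 1.96 points. The limma tests and intervals rest on a single spread for both groups, which need not describe either.

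Among promoters, Cfap74, which encodes a protein of cilia and flagella, had the smallest p. Its 3 CpGs had levels of 70.6%, 69.4% and 68.3% in MCR mice, against 87.8%, 93.1%, 83.8% and 82.8% in LFCR mice (difference -17.4 points, limma adjusted p = 0.654). The groups did not overlap, and the LFCR mice were in or above the range of 74.0% to 88.5% in 3 Control mice. All 3 MCR mice lay below all 4 LFCR mice at 183 promoters (6.56%) and above them at 43 (1.54%).

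Nr1h2 encodes the oxysterol receptor LXR-beta, which controls cholesterol and lipid genes. Its promoter, with 10 CpGs, had 51.0%, 53.2% and 54.3% in MCR mice, against 59.6%, 57.4%, 57.8% and 61.9% in LFCR mice, a difference of -6.36 points with a 95% interval of -9.81 to -2.92. The promoter of Acan, which encodes the cartilage proteoglycan aggrecan, had 37.3%, 38.3% and 33.9% in MCR mice, against 44.4%, 42.0%, 45.3% and 48.0% in LFCR mice. The 4 Control mice with a value had 53.0% to 57.7%, above both groups. That of Gnaz, a G protein alpha subunit, had 67.4%, 69.5% and 65.4% in MCR mice, against 73.4%, 72.6%, 73.7% and 76.2% in LFCR mice. Differences were smaller over the 36 CpGs of Fzd5, a Wnt receptor, at -2.98 points, and over the 15 CpGs of Egr2, a transcription factor of immediate early type, at -5.41 points. In the promoters of Nr1h2, Acan and Gnaz the groups did not overlap, and none was called.

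Promoters with higher levels in MCR included F2rl3, which encodes the thrombin receptor PAR4 of platelets. It had 68.1%, 65.8% and 67.2% in MCR mice, against 60.2%, 46.8%, 48.5% and 35.6% in LFCR mice (difference 19.3 points, limma adjusted p = 0.654). The 4 Control mice with a value had 19.6% to 35.6%, so that LFCR mouse 72 stood at the top of the Control range and the MCR mice far above it. Slc15a3, a lysosomal transporter of peptides and histidine, had 36.8%, 35.9% and 34.8% in MCR mice, against 23.1%, 18.4%, 29.5% and 10.0% in LFCR mice. Sipa1, a GTPase-activating protein for Rap, had 46.9%, 40.1% and 44.3% in MCR mice, against 36.7%, 39.0%, 36.0% and 33.2% in LFCR mice over 19 CpGs. Mapkapk3, a kinase downstream of p38, had 24.8%, 17.6% and 23.8% in MCR mice, against 15%, 16.5%, 12.3% and 9.54% in LFCR mice. In all of these promoters the MCR mice lay above every LFCR mouse, and none was called.

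**Figure D4:**
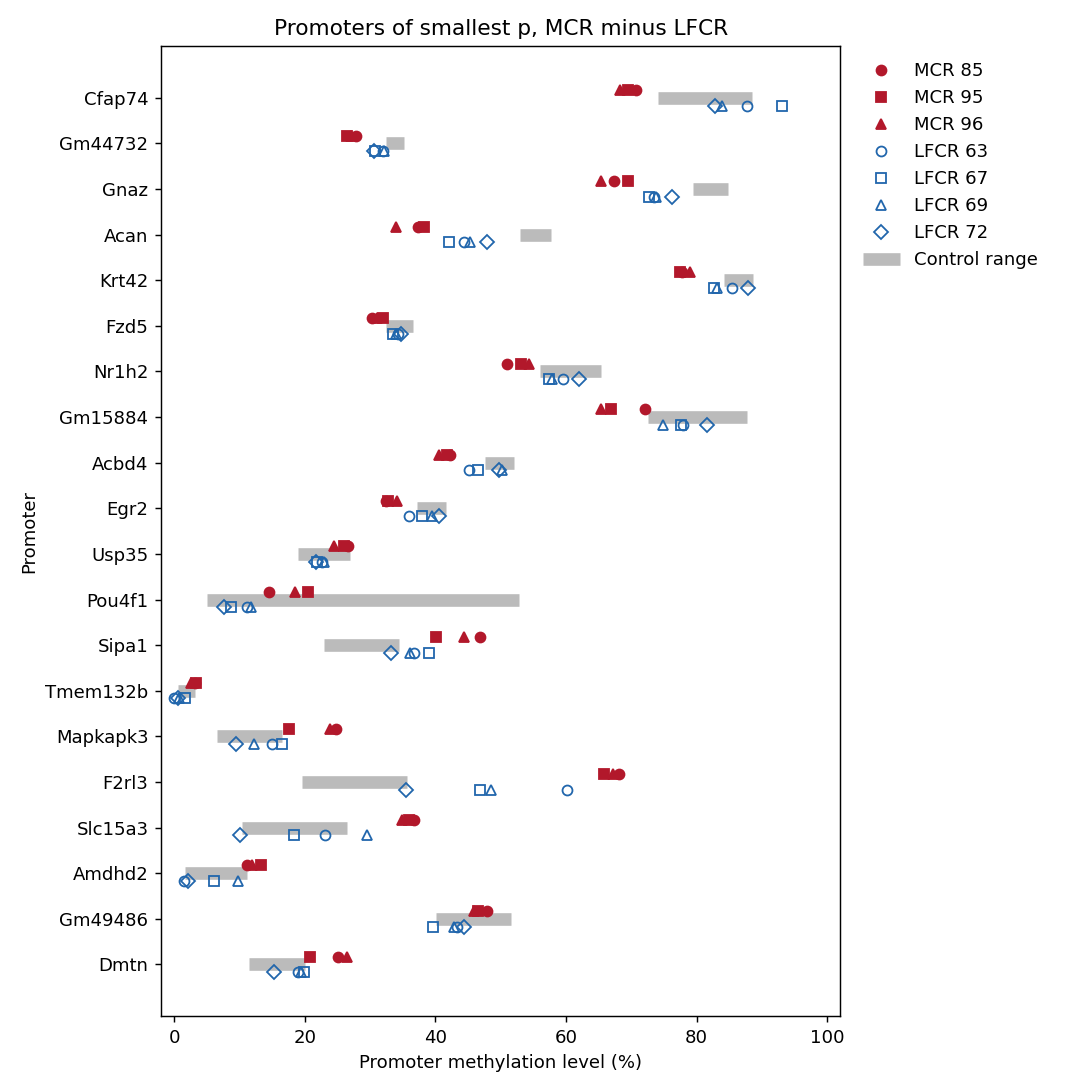
Methylation level (%) of the 10 promoters lower and the 10 promoters higher in MCR of smallest p, none of which was called. Filled red symbols are MCR mice, open blue symbols LFCR mice and grey bars the range of the Control mice. At Cfap74 the MCR mice sit at 68.3% to 70.6% and the LFCR mice at 82.8% to 93.1%, and at F2rl3 the MCR mice sit at 65.8% to 68.1% and the LFCR mice at 35.6% to 60.2%.

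Over whole genes, Tyw1 had the smallest p. Tyw1 encodes an enzyme that makes the modified base wybutosine in phenylalanine tRNA. Its 5 CpGs lay on chromosome 5 between positions 130265970 and 130340878. The gene level was 74.7%, 71.7% and 80.1% in MCR mice, against 91.0%, 96.0%, 90.4% and 95.1% in LFCR mice. LFCR mouse 67 had no value at positions 130277225 and 130340878, and its level is adjusted for the missing CpGs. The difference was -17.6 points (limma adjusted p = 0.523, 95% interval -23.5 to -11.8), and the 2 Control mice with a value had 91.6% and 93.4%. With the spread shared with 14 other libraries of the series, Tyw1 was called (difference -18.0 points, limma adjusted p = 0.00294). That spread need not describe the LFCR mice. The difference did not come from every site alike. At the first CpG MCR mice had 87.5%, 60.0% and 81.0%, against 100%, 100%, 89.5% and 100% in LFCR mice, and at the third CpG MCR mouse 85 alone was low, at 53.8% against 100% in the other 6 mice.

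Spint2, which encodes a serine protease inhibitor of epithelial cells, had 46.0%, 52.6% and 47.2% in MCR mice, against 60.8%, 60.6%, 54.7% and 60.3% in LFCR mice over 10 CpGs (difference -10.5 points, not called). Chl1, a neural cell adhesion protein, had 81.5%, 82.6% and 80.2% in MCR mice, against 88.4%, 90.3%, 90.3% and 88.6% in LFCR mice. Slc36a1, a proton-coupled amino acid transporter, had 74.5%, 70.5% and 73.8% in MCR mice, against 80.2%, 79.5%, 84.6% and 81.3% in LFCR mice. In the other direction, Oas2, an interferon-induced oligoadenylate synthetase, had 60.2%, 60.8% and 60.9% in MCR mice, against 50.5%, 56.0%, 52.0% and 45.9% in LFCR mice. Atg7, which is needed to form autophagosomes, had 73.8%, 72.5% and 72.4% in MCR mice, against 65.6%, 70.8%, 67.4% and 65.1% in LFCR mice. Spns2, an exporter of sphingosine-1-phosphate, had 58.6%, 57.3% and 57.1% in MCR mice, against 53.1%, 54.3%, 53.1% and 51.7% in LFCR mice over 26 CpGs. These genes were among 456 (7.96%) with all MCR mice below all LFCR mice and 62 (1.08%) with all MCR mice above.

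Among regions, the smallest p belonged to 8 CpGs annotated to the body of Trim17, a ubiquitin ligase of the tripartite motif family, at chr11:58961916-58961968. They had 51.7%, 55.3% and 51.8% in MCR mice, against 73.9%, 76.3%, 69.7% and 74.2% in LFCR mice (difference -20.6 points, limma adjusted p = 0.527). Here all 4 LFCR mice were within the range of 55.1% to 77.7% in 4 Control mice and 2 of the 3 MCR mice below it. In the body of Prdm16, which encodes a transcription factor of brown and beige fat, 6 CpGs had 33.6%, 27.0% and 30.2% in MCR mice, against 44.8%, 42.6%, 60.0% and 57.4% in LFCR mice. Control mice had 56.4% to 78.9% there. A single island CpG elsewhere in the body of Prdm16 went the other way. It had 48.0%, 47.7% and 45.5% in MCR mice, against 34.8%, 34.9%, 31.0% and 28.6% in LFCR mice, and was not called. In Nfix, a nuclear factor I gene, 6 CpGs had 21.9%, 21.7% and 21.8% in MCR mice, against 30.9%, 36.8%, 46.4% and 53.8% in LFCR mice. The MCR mice were nearly identical in Nfix, and the LFCR mice were spread out above them.

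Higher in MCR was a region of 5 CpGs in Mafg, which encodes a small Maf protein that partners Nrf2. It had 69.6%, 74.4% and 69.6% in MCR mice, against 51.9%, 57.7%, 39.0% and 19.9% in LFCR mice (difference 29.1 points, limma adjusted p = 0.527). In Vwf, the gene of von Willebrand factor of vessels and platelets, 7 CpGs had 61.4%, 62.5% and 62.8% in MCR mice, against 53.7%, 54.8%, 41.0% and 38.8% in LFCR mice. Pitpnm2 had 54.7%, 56.4% and 54.2% in MCR mice, against 43.9%, 43.2%, 45.9% and 45.2% in LFCR mice. In Pitpnm2 the LFCR mice lay close together and within the Control range of 41.2% to 51.8%, while in Mafg and Vwf mice 69 and 72 were farthest from the MCR mice. All MCR mice lay below all LFCR mice at 439 regions (7.54%) and above them at 76 (1.31%).

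All 3 MCR mice lay below every LFCR mouse with a value at 7319 CpGs (5.59%) and above every one at 2017 (1.54%). By context, they lay below at 3.73% of island CpGs, 5.41% of shore CpGs, 6.55% of shelf CpGs and 6.23% of open sea CpGs. At the CpG in Rpl13a, which encodes a ribosomal protein, that had the smallest p, levels were 17.2%, 16.7% and 18.8% in MCR mice, against 33.3%, 35.5%, 36.4% and 35.7% in LFCR mice (limma adjusted p = 0.577). At a CpG in Inpp5a, an inositol phosphatase gene, they were 31.6%, 40.0% and 41.8% in MCR mice, against 77.3%, 72.2%, 80.6% and 82.7% in LFCR mice. The widest gap among the CpGs of smallest p was in Serpina3m, a serine protease inhibitor gene, with 100%, 82.4% and 80% in MCR mice, against 10.0%, 8.33% and 0.00% in LFCR mice 67, 69 and 72. LFCR mouse 63 had no value there. The average coverage of this CpG over libraries was 23.1 reads. These 3 CpGs were picked for small p, so wide gaps between the groups follow from that choice. At the CpG in Serpina3m the MCR mice ranged from 80% to 100%.

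Among genes with at least 20 tested CpGs, some held many CpGs at which the groups did not overlap. The genes named here were ranked by their share of such CpGs, so they were chosen after their values were seen. Neighbouring CpGs share fragments and reads. In Flt4, the receptor of lymphatic growth factor VEGF-C, 13 of 43 CpGs had all MCR mice below all LFCR mice. In Cpt1b, the muscle-type enzyme that admits fatty acids to mitochondria, 9 of 28 did. Over all CpGs tested this share was 5.59%. Flt4 had 44.4%, 44.1% and 46.5% in MCR mice, against 53.3%, 49.9%, 51.5% and 60.0% in LFCR mice (difference -8.66 points, not called). Cpt1b had 40.1%, 39.4% and 40.5% in MCR mice, against 44.0%, 42.8%, 56.9% and 65.6% in LFCR mice. All MCR mice lay above all LFCR mice at 6 of 30 CpGs of Mafg and at 6 of 21 CpGs of Hoxa11, a homeobox gene of limb and reproductive tract. Over all CpGs tested the share above was 1.54%.

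The promoters of widest spread among LFCR mice were ranked by their SD, so their values are a description. A030001D20Rik had 27.5%, 23.8% and 24.6% in MCR mice, against 18.1%, 16.6%, 45.4% and 76.2% in LFCR mice, and Control mice had 61.0% to 75.9%. Agap2, which encodes a GTPase-activating protein that binds PI 3-kinase, had 68 measured CpGs, with 8.50%, 10.2% and 13.0% in MCR mice, against 9.91%, 11.4%, 33.4% and 48.5% in LFCR mice. Mxra8, a membrane protein of the immunoglobulin type linked to matrix remodelling, had 10.2%, 10.1% and 6.79% in MCR mice, against 7.47%, 13.0%, 31.4% and 47.4% in LFCR mice. In each of these 3 promoters LFCR mice 69 and 72 exceeded every MCR mouse, and mice 63 and 67 were at or near the MCR level.

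Other promoters ran in the opposite direction. Arhgap30 had 83.1%, 75.9% and 80% in MCR mice, against 77.5%, 83.5%, 58.4% and 33.1% in LFCR mice, and 4 Control mice had 17.2% to 49.1%. Unc13d, which is needed for the release of cytotoxic granules, had 46.7%, 47.7% and 44.5% in MCR mice, against 48.1%, 58.3%, 19.9% and 18.7% in LFCR mice. Dok3 had 81.6%, 74.4% and 78.3% in MCR mice, against 74.1%, 68.3%, 39.6% and 39.9% in LFCR mice, with Control mice at 17.4% to 45.3%. Only in Dok3, of these 3, did all MCR mice lie above all LFCR mice. Mex3a and Mir1905 share the same 5 CpGs and so the same values.

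**Figure D5:**
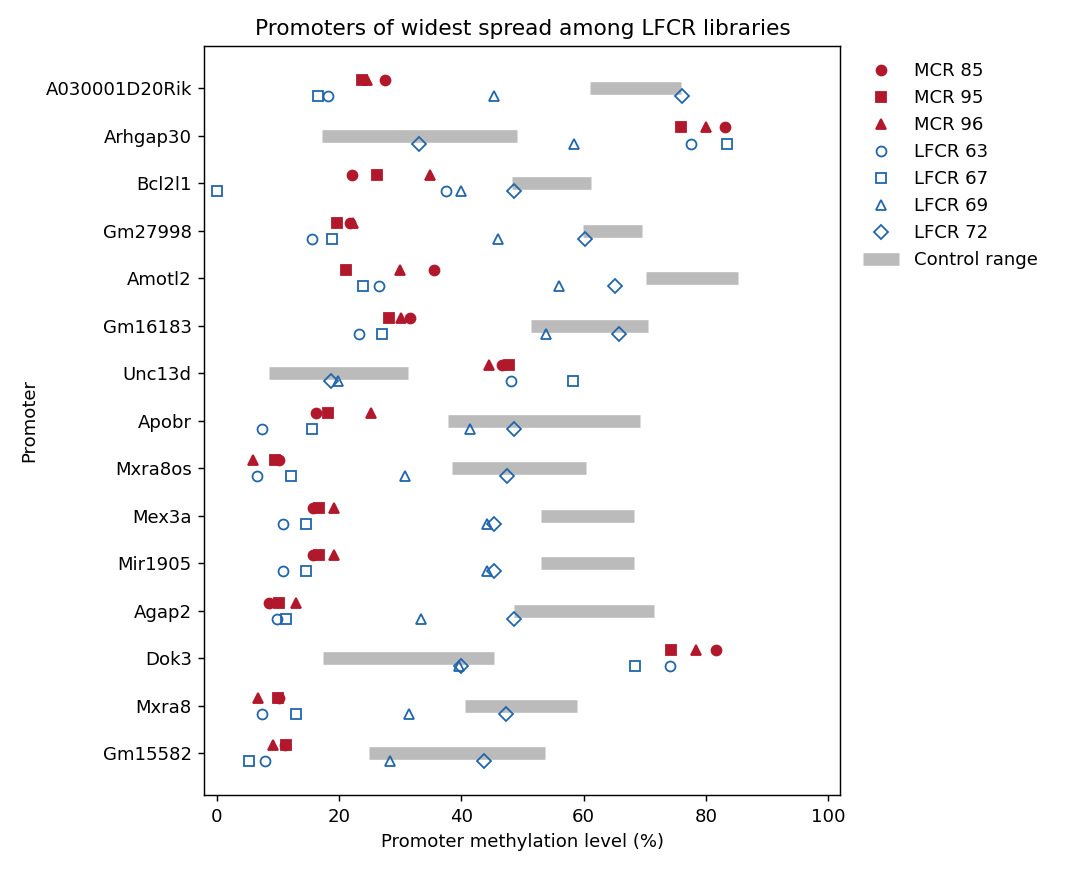
Methylation level (%) of the 15 promoters of widest spread (SD) among LFCR mice. Filled red symbols are MCR mice, open blue symbols LFCR mice and grey bars the range of the Control mice. At Agap2, LFCR mice 69 and 72 sit at 33.4% and 48.5%, and the MCR mice at 8.50% to 13.0%.

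No member of any of the 30 gene lists was called, for promoters or for genes, so the lists are described by their medians. Against a median difference of -1.17 points over all promoters, the 10 measured promoters of 44 pan-leukocyte genes had a median of 10.8 points, with 7 of 10 higher in MCR. Of all promoters, 70.8% were lower in MCR. The pan-leukocyte list was drawn up with earlier results of these data known, and it includes F2rl3, so its median is only a description. The promoters of the other immune lists had medians of -0.0624 points in 5 T cell, -7.71 in 2 B cell and 0.0811 in 3 macrophage and myeloid promoters. The pan-leukocyte median level was 53.5%, 46.5% and 42.4% in MCR mice, against 50%, 38.3%, 35% and 34.4% in LFCR mice, and 18.7% to 36.8% in Control mice. Coro1a, an actin-binding protein of leukocytes, had 42.0%, 41.3% and 41.7% in MCR mice, against 39.8%, 38.3%, 28.2% and 20.4% in LFCR mice over 13 CpGs. In its pair of 300-base RefSeq windows, with 3 CpGs each, every mouse had at most 9.11%, and the larger difference was 1.52 points. Vav1, a guanine nucleotide exchange factor of blood cells, had 41.3%, 34.1% and 29.9% in MCR mice, against 32.9%, 31.0%, 12.9% and 17.2% in LFCR mice. F2rl3 and Arhgap30, given above, belong to the same list. Lower in MCR in that list, and chosen after its values were seen, was Runx1, a transcription factor of blood cell development, with 4.90%, 4.93% and 6.80% in MCR mice, against 4.70%, 10.3%, 34.3% and 38.8% in LFCR mice. Over whole genes the pan-leukocyte median was 0.675 points in 19 genes, and Dock2, a leukocyte Rac activator, had 55.8%, 54.3% and 49.1% in MCR mice, against 59.5%, 57.9%, 68.1% and 67.3% in LFCR mice. Their part in the other results was not tested.

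Over whole genes, markers of other cells of the pad were mostly lower in MCR, as were genes in general (median -2.65 points). The 13 endothelial genes had a median of -5.04 points, the 16 luminal epithelial genes -2.82, the 7 basal epithelial genes -2.90, the 10 fibroblast genes -2.12 and the 10 adipocyte genes -1.47. The promoters of the endothelial list did not follow, with a median of 0.0639 points and 4 of 8 lower in MCR. Promoter medians were -1.50 points in 10 luminal, -2.90 in 3 basal, -1.35 in 6 fibroblast and -0.954 in 6 adipocyte promoters. Over all promoters the median was -1.17 points. Krt7, a luminal keratin, had a promoter level of 36.3%, 31.3% and 26.7% in MCR mice, against 37.3%, 37.8%, 50.5% and 55.8% in LFCR mice. Of the 10 luminal promoters, 8 were lower in MCR. In 2 all MCR mice lay below all LFCR mice and in 1 all lay above, against 6.56% and 1.54% of all promoters. Pnpla2, the first lipase of triglyceride breakdown in fat cells, had 62.0%, 61.0% and 64.9% in MCR mice, against 65.2%, 61.4%, 73.9% and 82.6% in LFCR mice over 21 CpGs. Slc2a4, the insulin-responsive glucose transporter, had 51.1%, 45.2% and 49.7% in MCR mice, against 45.0%, 44.9%, 63.0% and 68.9% in LFCR mice. In both fat cell genes the groups overlapped. Median differences of the lymphocyte lists were -0.670 points in 12 T cell genes and -1.05 points in 10 B cell genes.

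Lists on diet and energy also gave no called member. Camkk2, a kinase that activates AMPK, had a promoter level of 68.1%, 68.6% and 71.1% in MCR mice, against 75.1%, 73.8%, 76.9% and 80.4% in LFCR mice (difference -7.29 points, groups not overlapping). Prkag2, a regulatory subunit of AMPK, had 52.3%, 48.1% and 51.8% in MCR mice, against 53.2%, 56.1%, 55.9% and 58.8% in LFCR mice over 58 CpGs of the gene. Socs3, a feedback inhibitor of cytokine and leptin signalling, had a promoter level of 7.43%, 6.52% and 7% in MCR mice, against 8.41%, 11.4%, 14.4% and 19.8% in LFCR mice. Ffar2, a receptor of short-chain fatty acids, had 45.1%, 49.2% and 55.1% in MCR mice, against 59.0%, 53.4%, 62.8% and 68.1% in LFCR mice. These were named for the smallest p within their lists, and of the whole energy sensing list 1 of 6 promoters and 2 of 14 genes had all MCR mice below all LFCR mice, against 6.56% of all promoters and 7.96% of all genes.

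Median differences over genes were -2.76 points for lipid synthesis (8 genes), -2.51 for fatty acid oxidation (9), -3.46 for thermogenic fat (10), -2.64 for insulin and mTOR signalling (23), -2.41 for energy sensing (14), -3.69 for omega-3 and eicosanoid genes (14) and -4.59 for hormone receptors (15). Fasn, the fatty acid synthase, had a promoter level of 21.4%, 24.0% and 23.1% in MCR mice, against 22.6%, 19.8%, 23.2% and 18.5% in LFCR mice, and Dnmt3a, a de novo DNA methyltransferase, had 14.8%, 10.2% and 12.6% in MCR mice, against 13.3%, 13.5%, 24.9% and 22.4% in LFCR mice. Groups overlapped in both. The 16 promoters of matrix and junction genes had a median difference of -3.89 points, and their median level was 32.2%, 30.2% and 32.9% in MCR mice, against 30.7%, 30.0%, 45.4% and 52.8% in LFCR mice. In that list LFCR mice 69 and 72 were near or inside the Control range of 50.5% to 61.9%.

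The 67 promoters of developmental transcription factors had a median difference of -0.643 points and the 30 Hox promoters -0.107 points. Within the Hox list, Hoxa5 had a promoter level of 26.4%, 22.3% and 29.2% in MCR mice, against 31.4%, 28.0%, 46.5% and 51.6% in LFCR mice over 53 CpGs. Among imprinted genes, Nnat had 28.6%, 33.4% and 38.5% in MCR mice, against 38.1%, 40.3%, 44.3% and 42.0% in LFCR mice. The median level of the 8 housekeeping promoters was at most 0.572% in MCR mice and at most 0.699% in LFCR mice.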

How the data were processed

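RRBS libraries of 7 mice (3 MCR, 4 LFCR) were compared, with 5 Control libraries for orientation. Per the submitters' processing notes, reads were processed with Bismark against mm10; versions, filters and depth per library are not given in the sources used here. The authors deposited methylation as a fraction of reads for each CpG in each library, and an average coverage signal per CpG, which is a whole number at 100% of CpGs when multiplied by 21. Group values and a contrast under headers that the labels do not use were left out. Each library was taken from its column name and its group from the labels.

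Members and gene lists were chosen with earlier results of these data known. The design asked for a read-count model if counts were given. The table has fractions, so limma 3.58.1 (R 4.3.3, trend and robust off, two-sided, Benjamini-Hochberg) was run on the level. Average coverage had quartiles of 36.7, 55.1 and 86.3 reads at the CpGs tested. Of the 273804 CpGs of chromosomes 1 to 19, MCR mice 85, 95 and 96 had values at 73.4%, 52.4% and 93.0%, and LFCR mice 63, 67, 69 and 72 at 85.3%, 72.3%, 95.3% and 97.5%. As depth per library is unknown, no binomial intervals are given. Promoters are CpGs the file places upstream of a start, in the 5'UTR or in the 1st exon (at least 3), genes all CpGs of a gene (at least 5). A level needed at least 0.5 of the CpGs, and is the mean of the CpG means plus the mouse's mean deviation. Genes sharing CpGs share values. The named features are the 10 of smallest p in each direction, as none was called, and up to 3 members of smallest p per list; the text gives a part. Features outside this rule are marked in the text. RefSeq windows, added after the data were seen (399 with at least 3 CpGs, of 375 genes), gave 0 calls in limma (smallest adjusted p 0.720, 15 at an unadjusted p under 0.05). The fit was run on simulated independent normal values with the same SD in both groups. That run does not cover the unequal spread of the 2 groups here. Figures used matplotlib 3.10.9 under Python 3.11.15 with pandas 2.3.3.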

Additional observations from a re-analysis of the deposited data

Results flagged for a closer look

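In Spint2, LFCR mouse 69 stood apart from the other LFCR mice, by the ratio of its gap to the range of the 4 mice. Over the gene it had 54.7%, against 60.8%, 60.6% and 60.3% in LFCR mice 63, 67 and 72, with MCR mice at 46.0%, 52.6% and 47.2%. Over the region of 7 CpGs in the same gene it had 68.3%, against 74.5%, 73.4% and 73.8% in the other LFCR mice, with MCR mice at 55.5%, 63.7% and 54.7%. The gene and the region share CpGs. Of 92 sets of 4 LFCR values, where sets lacking a value were passed over, these 2 held a mouse that stood apart. Chance gives about 1 set in 20, so 2 is no more than chance gives.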

How the results depend on the processing

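Under each alternative except 1, the count of calls was 0 at every level at which it was run. Other sizes of promoters, genes and regions, and another gap, were run at their own level alone. With the spread shared with 14 other libraries, 15 CpGs were called, 12 lower and 3 higher in MCR, and 1 gene, Tyw1 (difference -18.0 points, limma adjusted p = 0.00294), with 0 promoters and regions. That spread need not describe the LFCR mice. The 15 included the CpG in Serpina3m and those in Afap1l2, Cx3cr1 and Fzd9. The cause was not tested. Leaving out each mouse in turn gave 0 calls at every level, with smallest adjusted p in limma of 0.184 to 0.929 for CpGs, 0.170 to 0.977 for promoters, 0.268 to 0.893 for genes and 0.252 to 0.896 for regions. The difference in mean methylation was -4.29 to -1.71 when leaving out each mouse (-4.29 without LFCR mouse 63, -1.71 without mouse 72), -5.74 by the median over CpGs and -3.89 by region means, each with an exact permutation p of at least 0.2. Without LFCR mouse 63 the CpGs lower in MCR at an unadjusted p under 0.05 numbered 12718, without mouse 69 5103 and without mouse 72 5179, against 7938 with all mice. With each library's mean as a covariate the counts lower and higher in MCR were 89 and 55 for promoters, 173 and 152 for genes and 165 and 157 for regions. Of 1138 values of named features under alternatives, 0 reversed. These features were picked for smallest p and their groups did not overlap, so most alternatives could hardly have reversed them. No paired analysis was possible because the mouse numbers are unique to each group. Without depth per library, the precision of single values is unknown.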

Other observations

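On the X chromosome, outside the CpGs tested, the mean level over 1499 CpGs was 40.9%, 40.4% and 39.7% in MCR mice, against 38.6%, 40.8%, 42.3% and 44.5% in LFCR mice and 43.8% to 46.6% in Control mice. The groups overlapped there.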
